A study of Mus musculus with 4 samples.

Results

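Receptors for vasoactive peptides, proteases and lipid mediators were examined in embryonic fibroblasts carrying NSD2. The group was defined by 10 gene symbols: Cysltr1, Avpr1a, Ednra, Agtr1a, Agtr2, Bdkrb1, Bdkrb2, Ptger4, F2r and Lpar1. All probes annotated to these symbols were taken, which gave 10 probes for 9 genes among 16593 named genes on the array, Avpr1a having 2 probes. Ednra, the endothelin A receptor gene, was matched by no named probe and was not analysed here. The symbols were selected on earlier results of these same arrays, with the NSD2 and control differences known, so the differences below describe the members and carry no independent support.

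The series measured total RNA on Illumina mouse bead arrays in fibroblasts derived from p19ARF-/- mouse embryos, a loss that both groups share. One group had been stably transduced with wild-type NSD2, an enzyme that dimethylates histone H3 at lysine 36, and the other with a control vector, with 2 arrays each. Both were grown in medium with fetal bovine serum and without further treatment. The design text speaks of triplicates, and the vector, its promoter and the number of independent transductions are not given in the sources used here. An entry for blood as the tissue also stands in the labels. Of 9 measured fibroblast markers, 7 were above background on all 4 arrays, among them Col1a1, Col3a1, Thy1 and Pdgfra. Of 9 macrophage and mast cell markers, Cd14 was above it on all 4 arrays, Ptprc on 1, and 6 markers on 0. No named probe was matched to Nsd2, so the transgene itself was not checked. Nothing states that the arrays came from separate cultures, and p-values cover no spread beyond these 4 samples.

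All members are G protein-coupled receptors. CysLT1, encoded by Cysltr1, binds the cysteinyl leukotrienes, V1a (Avpr1a) binds vasopressin, AT1 and AT2 bind angiotensin II, and B1 and B2 bind kinins. EP4 (Ptger4) binds prostaglandin E2, PAR1 (F2r) is opened by thrombin cleavage and LPA1 (Lpar1) binds lysophosphatidic acid. Most of them act through Gq and phospholipase C to release calcium, PAR1 and LPA1 also through G12/13, and EP4 through Gs and cyclic AMP. Fibroblasts are known to answer several of these ligands with contraction, division or matrix production.

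The deposited signal of each probe is an average bead intensity on a linear scale. A probe was called above background where its signal passed the upper 5% point of the array's background distribution, which lay at 178 and 182 on the NSD2 arrays and at 185 and 219 on the control arrays. By this measure 4 of the 9 genes (Cysltr1, Avpr1a, Lpar1 and F2r) were above background on all 4 arrays, against 41.6% of all genes. Agtr1a was above it on 2 arrays, and Agtr2, Bdkrb1, Bdkrb2 and Ptger4 on 0. No level of one probe is set against that of another. Differences are log2 values of NSD2 minus control after background correction and quantile normalization, with the standard error of the limma fit. That standard error, like the p-value, draws on the variance of all probes and is not the scatter of the probe alone.

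**Figure D1:**
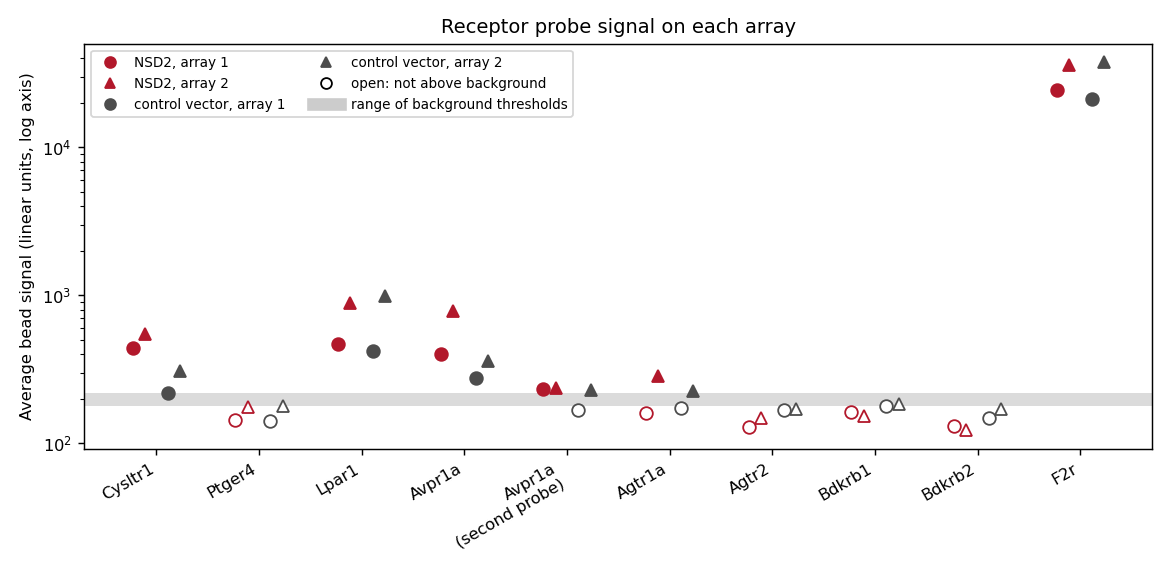
Average bead signal (log axis) of each receptor probe on the 2 NSD2 arrays (red) and the 2 control vector arrays (grey), circles for array 1 and triangles for array 2, with open symbols not above background. Cysltr1 and both Avpr1a probes have each NSD2 point above each control point, the second Avpr1a probe by little. Lpar1 and F2r overlap between groups, and 4 genes lie within or under the grey band of background thresholds (178 to 219). Heights of different probes cannot be compared.

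Among the lipid mediator receptors, Cysltr1 had the largest difference of all members. Its signal was 442 and 549 on the NSD2 arrays, against 219 and 307 on the control arrays, and the lower control value lay just above that array's threshold of 185. On the log2 scale Cysltr1 averaged 8.75 ± 0.19 in NSD2 cells and 7.52 ± 0.14 in control cells (SD, n = 2 each), a difference of 1.23 ± 0.21 (SE), or 2.35-fold. The groups did not overlap. Over all probes the limma adjusted p of Cysltr1 was 0.0755, which misses the threshold of 0.05. The authors' processed intensity of the same probe was 396 and 325 in NSD2 cells, against 105 and 127 in control cells. In bulk RNA, more cells with a transcript and more RNA per cell cannot be told apart.

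Lpar1 was measured on all 4 arrays. Its signal was 470 and 884 in NSD2 cells, against 422 and 997 in control cells. The control values enclosed the NSD2 values, and the arrays numbered 2 were the brighter ones in both groups. The difference was 0.00 ± 0.26, with log2 means of 9.17 ± 0.26 in NSD2 cells and 9.17 ± 0.59 in control cells (SD, n = 2 each). Other processing settings, or 1 array fewer, moved the Lpar1 difference between -0.41 and 0.42. Ptger4, with signals of 143 and 177 in NSD2 cells and 142 and 180 in control cells, was above background nowhere, and its difference of 0.27 ± 0.21 is not a measured change in level.

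Among the peptide receptors, Avpr1a was the member with a difference near 2-fold. Its brighter probe gave 401 and 781 in NSD2 cells, against 276 and 362 in control cells, and each of these was above background. The log2 means were 8.94 ± 0.32 in NSD2 cells and 7.94 ± 0.02 in control cells (SD, n = 2 each), a difference of 1.0 ± 0.22, or 2.01-fold, with a limma adjusted p of 0.431. The groups did not overlap, and the spread lay almost wholly within the NSD2 group. The second Avpr1a probe, near background throughout, gave 232 and 237 in NSD2 cells and 168 and 229 in control cells. It was above background on 3 arrays, and its difference of 0.59 ± 0.22 had the same direction at a smaller size. In the authors' processed values the brighter Avpr1a probe stood at 346 and 500 in NSD2 cells, against 175 and 172 in control cells.

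Both angiotensin receptor genes lay near background. Agtr1a had signals of 159 and 284 in NSD2 cells, against 174 and 226 in control cells. It was above background on array 2 of each group alone, and its groups overlapped (difference 0.24 ± 0.25). Agtr1b, a close relative of Agtr1a in mice, was above background on 0 arrays, and without the probe letters it was not tested whether either probe reads both transcripts. Agtr2 gave 129 and 149 in NSD2 cells and 168 and 172 in control cells, all under the thresholds. The fitted difference of Agtr2 was -0.19 ± 0.22.

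The kinin receptor genes were likewise not above background on any array. Bdkrb1, the inducible B1 receptor gene, had 164 and 153 in NSD2 cells and 180 and 185 in control cells. Bdkrb2, the gene of the B2 receptor, had 132 and 122 in NSD2 cells and 148 and 170 in control cells. Signals at this height have no interpretable fold, and the fitted differences were -0.05 ± 0.21 for Bdkrb1 and -0.23 ± 0.21 for Bdkrb2.

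The thrombin receptor gene F2r gave signals of 24404 and 35984 in NSD2 cells, against 21182 and 37532 in control cells, far above background on every array. Its groups overlapped. The log2 means were 14.90 ± 0.08 in NSD2 cells and 14.74 ± 0.27 in control cells (SD, n = 2 each), and the difference was 0.16 ± 0.21.

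**Figure D2:**
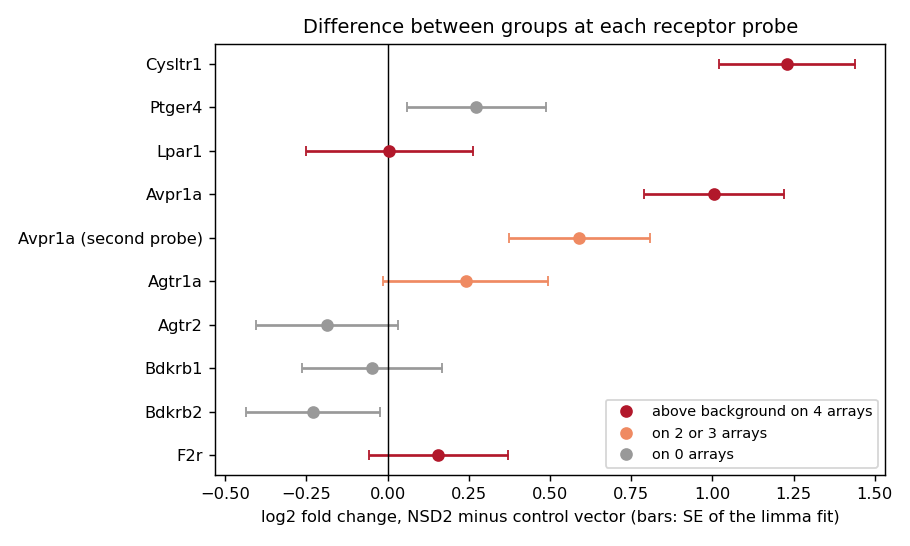
log2 fold change, NSD2 minus control vector, for each receptor probe (points) with the standard error of the limma fit (bars), coloured by the number of arrays above background. Cysltr1 (1.23) and both Avpr1a probes (1.0 and 0.59) stand apart on the right, and the other members lie between -0.23 and 0.27.

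In the fit across all probes 0 of the 9 receptor genes passed an adjusted p of 0.05 (limma), against 0.0241% of all genes. At an unadjusted p under 0.05 there were 2, Cysltr1 and Avpr1a, against 3.91%. The same 2 were at least 2-fold apart, against 0.0904% of all genes. The log2 values of the groups did not overlap in 4 (Cysltr1, Avpr1a, Ptger4 and Bdkrb2), against 32.0%, and the last 2 of these genes were below background. As the members were selected with this contrast known, nothing is read from these shares. Of the 9 fitted differences 6 were positive and 3 negative (median 0.16), beside 8185 and 8408 over all genes (median -0.00). The 3 negative ones and that of Ptger4 belong to genes below background on every array, and their signs carry no measured direction.

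Profiles most like that of Cysltr1 were sought among 6901 other genes above background on all 4 arrays, by the distance between log2 values centred on each gene's mean. The nearest was Aldh1a1, a retinaldehyde dehydrogenase gene, at a distance of 0.30, with log2 values of 12.28 and 12.33 in NSD2 cells and 11.23 and 11.28 in control cells. Next came Cldn15, which encodes a claudin of tight junctions, at 0.35, and St3gal6, a sialyltransferase gene, at 0.37. Their own differences were 1.05 ± 0.20, 1.22 ± 0.22 and 0.98 ± 0.21 in this order. The likeness is a description over 4 arrays.

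Promoter windows of 300 bases (250 before and 50 after the annotated start) were at hand in RefSeq (GRCm38.p6) for 6 of the 9 measured receptors, and not for Cysltr1, Agtr1a or Bdkrb1. Those of Avpr1a, F2r and Agtr2 are printed because they belong to a member with a higher NSD2 mean, one bright in both groups and one below background. CpG dinucleotides are in capitals.

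Avpr1a (chr10:122448249-122448548, plus strand): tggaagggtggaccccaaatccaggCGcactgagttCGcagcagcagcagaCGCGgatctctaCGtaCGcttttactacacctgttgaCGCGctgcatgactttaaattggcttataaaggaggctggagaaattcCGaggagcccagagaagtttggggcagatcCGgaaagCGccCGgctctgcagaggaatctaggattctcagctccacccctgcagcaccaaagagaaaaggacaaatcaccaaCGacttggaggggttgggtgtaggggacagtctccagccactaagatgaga
F2r (chr13:95618417-95618716, minus strand): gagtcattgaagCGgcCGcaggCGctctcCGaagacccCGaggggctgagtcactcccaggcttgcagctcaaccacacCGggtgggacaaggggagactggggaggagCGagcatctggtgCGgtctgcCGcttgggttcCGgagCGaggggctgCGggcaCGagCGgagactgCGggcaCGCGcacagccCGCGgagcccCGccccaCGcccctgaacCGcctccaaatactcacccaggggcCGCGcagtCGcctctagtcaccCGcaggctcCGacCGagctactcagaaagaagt
Agtr2 (chrX:21484374-21484673, plus strand): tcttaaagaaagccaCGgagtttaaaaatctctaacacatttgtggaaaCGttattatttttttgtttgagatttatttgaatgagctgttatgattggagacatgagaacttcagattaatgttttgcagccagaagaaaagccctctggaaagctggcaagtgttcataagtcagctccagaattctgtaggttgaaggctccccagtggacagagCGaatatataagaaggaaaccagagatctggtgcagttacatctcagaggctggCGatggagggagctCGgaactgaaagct

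The Avpr1a window held 13 CpG dinucleotides, the F2r window 28 and the Agtr2 window 5, where the median of all 32851 windows was 7. Bdkrb2 had 10, Ptger4 25 and the 3 windows of Lpar1 3, 37 and 14, so members above and below background both spanned low and high numbers. Both strands were searched for a TATA box (TATAAA), a GC box (GGGCGG), a cyclic AMP response element (TGACGTCA) and an AP-1 site (TGACTCA), which occur in 13.6%, 35.7%, 1.79% and 5.20% of the windows. The Avpr1a window held a TATAAA at position -137 from the annotated start, and F2r a GC box at -49 and an AP-1 sequence at -204. The Agtr2 window held none of the 4 exact sequences. Near variants, such as the tatataag in the printed Agtr2 window, were not searched, so presence or absence of a TATA box was not tested. Exact matches describe the sequence alone.

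The genes around the receptors were taken from 8 lists of ligands, enzymes and signalling proteins, in which 138 of 163 listed genes were measured. None of the 138 passed (limma adjusted p over all probes, smallest 0.9996), and 10 had an unadjusted p under 0.05, where the share over all genes was 3.91%. Of the 68 above background on at least 2 arrays, 30 had higher and 38 lower means with NSD2, with a median difference of -0.03. Over all genes by the same filter the split was 3883 higher and 3989 lower. Of the 10 genes with a limma unadjusted p under 0.05, 5 higher and 1 lower passed this filter, beside 166 and 124 over all genes. The others did not, and their differences are no measured change.

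Other receptors of the same ligand families were mostly dark, with 3 of 26 above background on all 4 arrays and 16 on 0. The lysophosphatidic acid receptor genes Lpar6 and Lpar4 were among the 3, with differences of 0.15 ± 0.21 and -0.06 ± 0.25, and the sphingosine 1-phosphate receptor gene S1pr2 had -0.09 ± 0.24. Lpar2 gave signals of 228 and 248 in NSD2 cells, against 179 and 236 in control cells, a difference of 0.50 ± 0.21 near background. The other Lpar2 probe, above background on 0 arrays, gave 0.17. S1pr5 differed by -0.36 ± 0.21, with another probe, above background on 1 array, at 0.32. Cysltr2, the other cysteinyl leukotriene receptor gene, was above background on 0 arrays, as was Ednrb.

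Genes of the lipid mediator enzymes were above background on all 4 arrays in 11 of 25 cases, and those of peptide ligands and their processing enzymes in 5 of 20. Ptgis, the prostacyclin synthase gene, had 11333 and 18034 in NSD2 cells and 10326 and 14744 in control cells (0.23 ± 0.20). Ptges3 and Ptges2, annotated as prostaglandin E synthase genes, stood at 0.18 ± 0.21 and 0.00 ± 0.22, with every array above background. In the same list Ptges was above it on 0 arrays and Ptgs2 on 1 array of each group. Of the genes for making leukotrienes, Alox5 and Ltc4s were above background on 0 arrays and Alox5ap on 1. Avp, Agt and F2, which encode the precursors of vasopressin, angiotensin and thrombin, were above it on 0. Edn1, the endothelin 1 gene, was measured on all arrays with 1150 and 1875 in NSD2 cells and 1205 and 1379 in control cells (0.19 ± 0.21). Hpgd encodes the enzyme that inactivates prostaglandins, and its signals were 225 and 187 in NSD2 cells, against 162 and 154 in control cells. As the control arrays were not above background the difference is given as at least 1.23-fold higher. With a limma adjusted p of 0.9996 no increase of Hpgd is established. Sphk1, a sphingosine kinase gene, had 293 and 484 in NSD2 cells, against 438 and 649 in control cells (-0.57 ± 0.21, limma adjusted p = 0.9996), and its other 2 probes, above background on 0 and 1 arrays, gave -0.19 and 0.29. Anpep, an aminopeptidase gene, was above background on the control arrays alone and is given as at least 1.17-fold lower. Its fitted difference was -0.35 ± 0.21 (limma adjusted p = 0.9996), so no decrease is established. Enpp2, the gene of the enzyme that makes lysophosphatidic acid, was matched by no named probe.

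Of the G protein alpha subunit genes 7 of 11 were above background on all 4 arrays, and none of these 7 differed by more than 0.25. Gnaq and Gna11, the Gq class through which CysLT1 and V1a act, stood at 0.10 ± 0.22 and 0.01 ± 0.21. Gna13 stood at -0.15 ± 0.22 and Gna12 at -0.22 ± 0.20. In the calcium branch Stim1, the sensor of calcium stores, had 380 and 544 in NSD2 cells, against 318 and 396 in control cells (0.47 ± 0.20), and Itpr2, a calcium release channel gene, had -0.58 ± 0.32 with overlapping groups. The other 2 Itpr2 probes, above background on 0 arrays, gave 0.20 and 0.08. Plcb3, a phospholipase C gene, stood at -0.23 ± 0.21. Among the proteins that dampen signalling by receptors or their G proteins, Rgs10 had signals of 2371 and 4621 in NSD2 cells, against 1674 and 2908 in control cells (0.60 ± 0.22). Rgs12 differed by 0.47 ± 0.20. Grk6 stood at -0.36 ± 0.21 with one probe and at 0.22 with the other. Grk5 stood at 0.25 ± 0.20 with its brighter probe and at 0.63 with the other, which was above background on 2 arrays. Gnai3, which most cells express, was above background on 0 arrays, so a dark probe does not show that a transcript was missing.

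Genes known to follow Gq or G12/13 signalling were split evenly, 7 higher and 7 lower among 14 above background on at least 2 arrays (median difference -0.04). Fos gave 1278 and 1782 in NSD2 cells, against 1326 and 740 in control cells, a difference of 0.65 ± 0.33 in which control array 2 held the lowest of the 4 signals. Ankrd1, which encodes a muscle ankyrin repeat protein, had 2790 and 5589 in NSD2 cells, against 3907 and 7631 in control cells (-0.47 ± 0.23), and its other probe gave -0.59. Egr2 stood at -0.33 ± 0.21, and Ccn2, a matricellular target gene, at -0.15 ± 0.21.

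**Figure D3:**
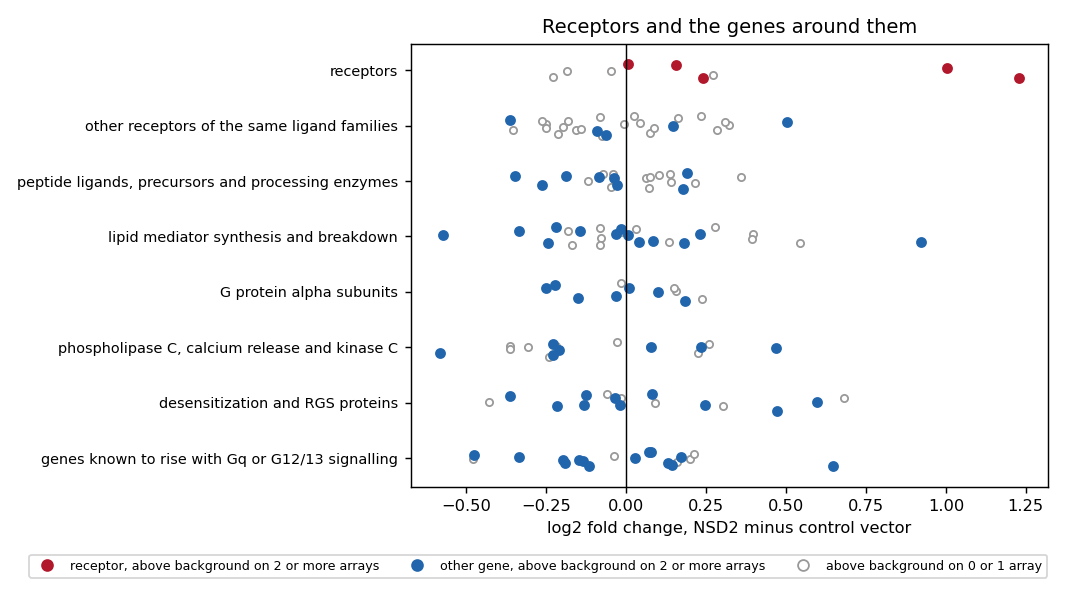
log2 fold change, NSD2 minus control vector, of each measured gene (points) in the receptor group (top row) and in 7 of the 8 lists around it. Filled points were above background on at least 2 arrays. Cysltr1 and Avpr1a lie at 1.23 and 1.0. The filled points of the lists lie between -0.58 and 0.65, except the Hpgd point to their right, a fitted value whose control arrays were not above background and which is no measured size.

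Several of these receptors are known from smooth muscle, endothelium and leukocytes, so markers of those cells were read on the same arrays. Of 11 smooth muscle markers 7 were above background on all 4 arrays, among them Acta2, while Myh11 and Cnn1 were on 0. Of these 7 markers 6 had higher and 1 a lower mean with NSD2 (median difference 0.16). The summed normalized intensity of the list was 77212 and 74121 in NSD2 cells and 76418 and 72164 in control cells. Most of that sum was Acta2, which had signals of 61474 and 64145 in NSD2 cells and 63782 and 66789 in control cells. Among the 7, the desmin gene Des had 758 and 805 in NSD2 cells, against 435 and 493 in control cells (0.86 ± 0.23, limma adjusted p = 0.9996). Of 9 macrophage and mast cell markers Cd14 alone was above background on all 4 arrays, with a summed intensity of 950 and 958 in NSD2 cells and 1037 and 913 in control cells. Of 9 endothelial markers Flt1 alone was so, at -0.65 ± 0.21 (limma adjusted p = 0.9996), Pecam1 and Cdh5 being on 0. The endothelial sum was 1726 and 1387 in NSD2 cells and 2141 and 1893 in control cells. Flt1 made up most of it on each array. Among 7 pericyte markers 2 were above background on all 4 arrays, with sums of 1032 and 973 in NSD2 cells and 1064 and 1065 in control cells. Among 7 nephron and adrenal markers only Krt8 was, with sums of 2402 and 2541 in NSD2 cells and 2236 and 2679 in control cells. The part of these cell types in the receptor values was not tested.

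**Figure D4:**
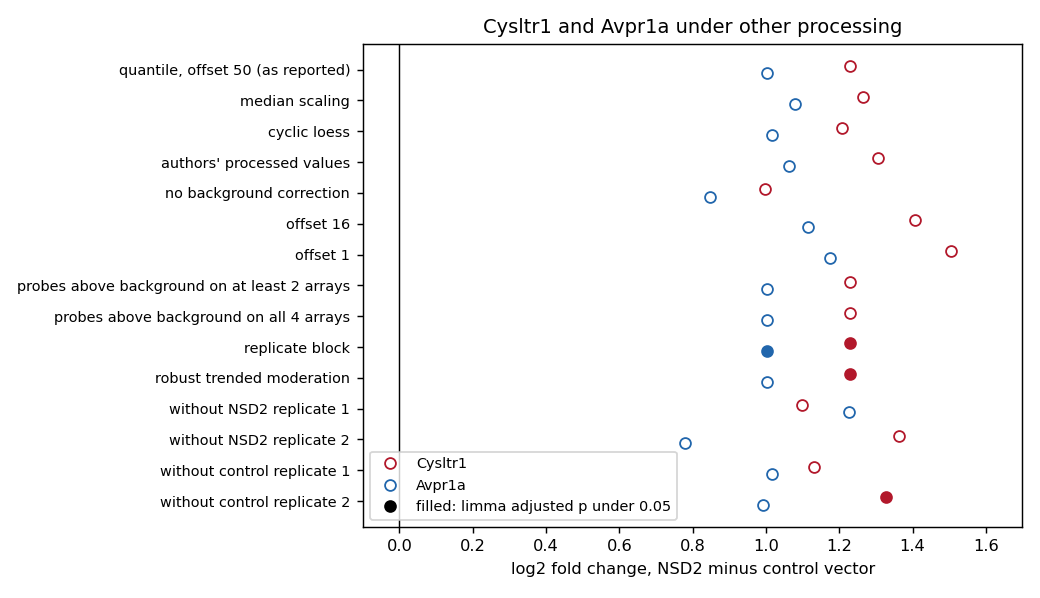
log2 fold change, NSD2 minus control vector, of Cysltr1 (red) and the brighter Avpr1a probe (blue) under the reported processing (top row) and 14 alternatives, with filled points at a limma adjusted p under 0.05. The values of both genes are above 0 in every row, and Cysltr1 is filled in 3 alternatives and Avpr1a in 1. The filter, block and robust rows repeat the reported value by design, and the rows without 1 array cannot change sign because the groups do not overlap.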

How the data were processed

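RNA of 4 arrays was analysed, grouped by the sample titles. Per the file headers, the first deposited table gives average bead signals, intensities on a linear scale that were not normalized. The second holds intensities processed by the authors in a way not given in the sources used here. Ranks of the probes were the same in both (Spearman correlation 1 on each array), medians of the second were 48.6, 42.3, 48.7 and 42.4 for NSD2 1 and 2 and control 1 and 2, and its values are linear, uncentred and run with the signal. The tables hold no detection p-values, so a background level was set per array by mirroring the lower side of the signal distribution about its mode, and 42.3% to 45.9% of the probes exceeded the upper 5% point. Median signals were 164 and 172 (NSD2) and 173 and 204 (control), and the number of arrays limits precision.

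Signals were corrected by normexp with an offset of 50, which compresses differences of dim probes, quantile normalized and fitted with lmFit and eBayes (limma 3.58.1, R 4.3.3) over all 25697 probes, two-sided, with Benjamini-Hochberg adjustment. The procedure was tested on simulated data with independent noise and planted log2 changes larger than the difference of any member. That simulation does not cover smaller differences or arrays that deviate together. Probe names came from the platform annotation and a RefSeq gene table, with 1719 probes unnamed and none with several genes. A gene is given by its brightest probe. Where a group had no array above background a fold is a bound, the other group's mean against the mean of the higher of the probe's value and the lowest value above background. Such a bound is a point value without an error. An exact permutation test of 2 against 2 arrays cannot give a two-sided p below 0.333. Genes named beside the members were taken from the up to 4 per list with the largest differences above background on at least 2 arrays. Receptors of the same families above background on all 4 and markers were added. Cpd, Edn2, Plpp3, Sgpl1, Gnao1, Gnai2, Orai1 and Rcan1 also met the rule and are not described. Further genes (Agtr1b, Cysltr2, Ednrb, Alox5, Alox5ap, Ltc4s, Avp, Agt, F2, Gnaq, Gna11, Gnai3, Ptgis, Ptges, Ptges2, Ptges3, Ptgs2 and Ccn2) were added for their role after values were seen. One of the 8 lists enters the pathway totals and is otherwise not reported here. Members and lists were chosen with earlier results of these data known.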

Additional observations from a re-analysis of the deposited data

How the results depend on the processing

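Cysltr1 and Avpr1a had positive differences in all 14 alternatives, Cysltr1 between 1.0 (no background correction) and 1.51 (an offset of 1) and Avpr1a between 0.78 and 1.23. In many of these the sign was fixed beforehand. The background filters, the replicate block and robust trended moderation repeat the reported difference, and leaving out 1 array cannot reverse groups that do not overlap. The limma adjusted p of Cysltr1 ranged from 3.2e-05 (replicate block) to 0.9998 (median scaling). That of Avpr1a was 0.0021 with the replicate block, its only value under 0.05, and 0.9998 with median scaling. The count of receptor genes changed, 0 as reported (2 at an unadjusted p under 0.05), was 2 with the replicate block and 1 (Cysltr1) with robust trended moderation, and 0 to 1 when 1 array was left out (Cysltr1 passed without control replicate 2, limma adjusted p = 0.0133). That of the pathway genes, 0 as reported (10 unadjusted), was 1 (Hpgd) with the replicate block and 0 to 2 on leaving out 1 array (Fos and Hpgd without control replicate 1). The count over all genes, 4 as reported, was 0 with median scaling (210 unadjusted), the authors' processed values (584), an offset of 16 (674) or 1 (685), or probes above background on all 4 arrays (236), 1 with probes above it on at least 2, 37 with the replicate block, 10 with robust trended moderation and 5 to 12 on leaving out 1 array (11 without control replicate 1, 12 without control replicate 2). The cause of these shifts was not tested, and a lone array is assumed to vary like the other group. Same-numbered arrays deviated together (correlation 0.52 across 9779 probes), and the Cysltr1 difference was 1.46 for number 1 and 1.0 for number 2, that of Avpr1a 0.77 and 1.24. Of the other members above background on at least 2 arrays, Agtr1a, F2r and Lpar1 changed sign in at least 1 alternative. Scaling moved the median over all genes by less than 0.1.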
